A study of Mus musculus with 6 samples.

Results

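The transcripts of 10 circadian clock genes were examined in cultured synovial fibroblasts (SFs), the mesenchymal cells of the joint lining. The members were picked by gene symbol from the 49548 genes of the deposited table, with earlier results of these data known, and all 10 were found. They are the activators Arntl and Clock, the repressors Per1, Per2, Per3, Cry1, Cry2, Nr1d1 and Nr1d2, and the output gene Dbp. All SFs were grown from ankles of mice on a CBA C57BL/6J background, aged 8 weeks by the study's methods, that carried a human TNF transgene (hTNFtg) and develop arthritis. The 2 groups were hTNFtg SFs given no treatment and hTNFtg SFs given the antipsychotic amisulpride, an antagonist at dopamine and serotonin receptors, at 500 μM for 48 hours, with 3 libraries each. The study's methods call the controls vehicle-treated, whereas the labels give no treatment, and they are called untreated here. No wild-type SFs were part of the comparison, and both groups carried the transgene. Cells positive for CD45 were depleted at passage 1. The time of day of collection and any step to synchronise the cells' clocks were not given in the sources used here.

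The mammalian clock is a feedback loop of transcription that runs in nearly every cell, fibroblasts included. ARNTL (also called BMAL1) pairs with CLOCK, or with its relative NPAS2, and the pair binds E-box elements to switch on the Per, Cry, Nr1d and Dbp genes. PER and CRY proteins then block the pair, while NR1D1 and NR1D2 (REV-ERBα and REV-ERBβ) shut down Arntl through elements called RREs, which the activating ROR proteins also use. DBP, a bZIP factor that swings widely with time of day, passes the signal on through D-box elements, among them those in Per genes. Arntl peaks at about the opposite time from Dbp and Per3. In fibroblast cultures each cell keeps its own phase unless the cells are synchronised, so that a bulk library averages over phases.

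The elements of the loop can be read in the promoters of the members, and are shown because they are the letters through which the factors of the loop are known to act. RefSeq promoter windows of build GRCm38.p6, which run from 250 bases before a transcript start to 50 bases after it, were at hand for 9 of the 10 members in 13 windows. There was none for Per2. Both strands were searched for the E-box CACGTG, the related CACGTT, the D-box TTATGTAA with its variant TTACGTAA, and the core of the RRE as TAGGTCA or TGGGTCA. The capitals mark the match in each sequence, which is written 5′ to 3′ on the strand of the gene, with AACGTG being CACGTT read on the other strand. Per3, which is transcribed from the minus strand, held 2 D-boxes that start 47 bases apart, in chr4:151044796-151044890, and neither lies in an annotated exon. The Arntl match lies on the plus strand in chr7:113207530-113207558, inside the transcribed 5′ end of the gene. The E-box of Per1 lies in chr11:69098771-69098800 (plus strand) and that of Cry1 in chr10:85185097-85185126 (minus strand). Matches to CACGTT were found for Cry2 in chr2:92434218-92434247 and for Nr1d1 in chr11:98775388-98775417, both on the minus strand, and for Cry1, 79 bases before the start.
Per3: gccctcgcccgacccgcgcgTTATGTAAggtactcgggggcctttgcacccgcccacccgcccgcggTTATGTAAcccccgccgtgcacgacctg
Arntl: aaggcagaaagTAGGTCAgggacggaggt
Per1: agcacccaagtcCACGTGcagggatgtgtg
Cry1: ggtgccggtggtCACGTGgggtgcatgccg
Cry2: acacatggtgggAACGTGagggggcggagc
Nr1d1: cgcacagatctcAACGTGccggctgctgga

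Among all 32851 windows, CACGTG was present in 7.15%, CACGTT in 4.68%, TTATGTAA in 0.938%, TTACGTAA in 0.119%, TAGGTCA in 2.61% and TGGGTCA in 3.98%. Of the 13 windows of the members, 2, 3, 1, 0, 1 and 0 held these motifs in the same order. The windows of Clock, Nr1d2 and Dbp held none of them. A match is a run of letters and was not tested as a binding site.

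The libraries held approximately 2.52 to 4.71 M reads, and the shallowest was amisulpride replicate 3. This library also stood apart on the first principal component, which carried 37.1% of the variance, at 73.9 against -38.2 to 10.4 for the other 5. On the second component, which carried 26.7%, amisulpride replicate 2 stood apart, at -56.5 against -22.7 to 27.8 for the other 5. Of the fibroblast markers examined, 10 of 10 were detected, and their summed normalised counts ranged from 47104 to 64502 in untreated SFs and from 53323 to 95142 in treated ones, highest in amisulpride replicate 3. The markers did not move together in that library. Of the 6 libraries it had the highest Col1a1 (35599) and Fn1 (20335) and the lowest Pdpn (1641) and Lum (50). The 8 myeloid markers were also detected, with sums of 2111 to 3795 and 1892 to 3834. Lyz2, at 1394 to 3287, made up most of each sum, and the others did not share a direction. Cd14 had 121, 69 and 76 in untreated and 47, 25 and 13 in treated libraries. These groups did not overlap, as for 16.5% of all genes tested. Adgre1 had a higher mean in treated SFs (44.7 against 26). The 4 endothelial markers summed to at most 13, with Cdh5 at 0 in all libraries, and the 4 skeletal muscle markers to at most 46, with Myh4 at 0. In bulk libraries fewer cells of a type and less RNA per cell cannot be told apart. Results that change with amisulpride replicate 3 are therefore given with and without it.

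All 10 clock genes were detected in every library, and none differed between treated and untreated SFs beyond the spread between libraries. The filter on low values kept genes that reached 10 normalised counts (reads scaled by the authors for each library) in 3 or more libraries, and 10 of 10 members passed it. The lowest single value, that of Arntl in amisulpride replicate 2, rested on approximately 8.97 reads and the highest, of Nr1d2, on approximately 242 reads. With limma, 0 of the 10 had an adjusted p-value under 0.05, where 0.285% of the 12614 genes tested did, and 0 passed the study thresholds (log2 fold change of 1 or more in either direction and unadjusted p-value under 0.05), where 5.7% did. The members had adjusted p-values of 0.551 to 0.969, and 0 had an unadjusted p-value under 0.05, against 10.9% of all genes tested. Of the members 7 had higher and 3 lower fitted values in treated SFs, with a median log2 fold change of 0.13 (0.00 over all genes tested).

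**Figure D1:**
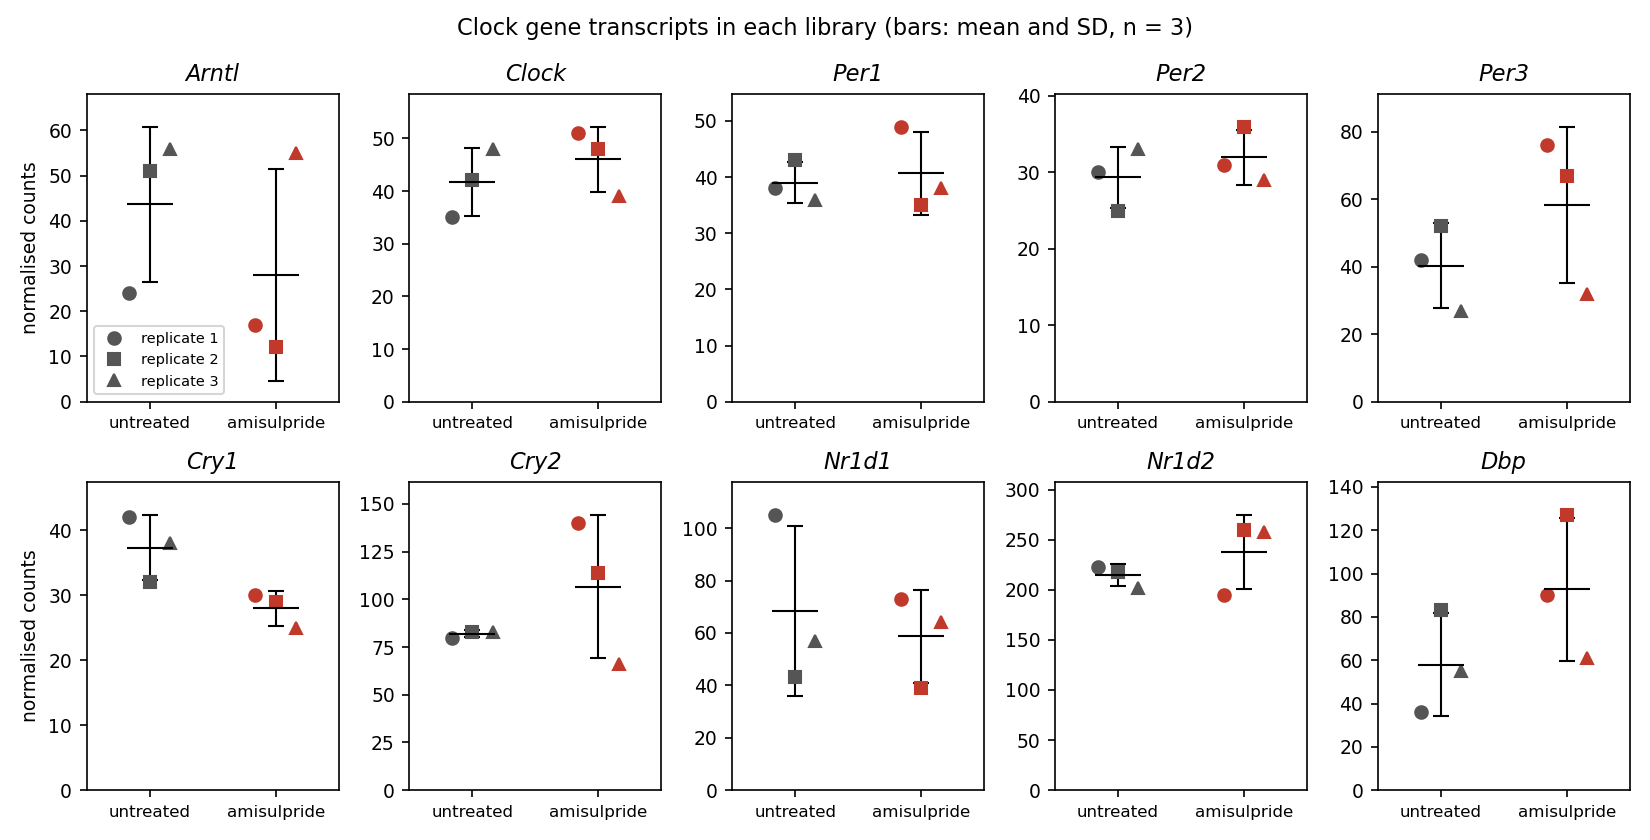
Normalised counts (y axis, from 0, own scale per gene) of the 10 clock genes in untreated and amisulpride-treated hTNFtg SFs. Symbols are the replicate numbers, and bars give the mean and SD over 3 libraries. The groups overlap in every panel but that of Cry1. Amisulpride replicate 3 is the highest treated library for Arntl and the lowest for Clock, Per2, Per3, Cry1, Cry2 and Dbp.

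Of the activators, Arntl (ENSMUSG00000055116, chromosome 7, 113207465 to 113314126, plus strand) showed the lowest fold change of the members. Its normalised counts were 24, 51 and 56 in untreated replicates 1 to 3 and 17, 12 and 55 in amisulpride replicates 1 to 3. The treated libraries thus fell into a low pair and 1 that matched the upper untreated values. The means were 43.7 ± 17.2 and 28 ± 23.5 (SD, n = 3). In limma the log2 fold change was -0.83 ± 0.55 (SE), its 95% interval ran from -2.03 to 0.37 and the adjusted p was 0.626. Arntl was lower in the treated library within each of the 3 replicate numbers, with log2 ratios of -0.47, -2.0 and -0.03. With the replicate number as a block the adjusted limma p was 0.380, and 0 of the 10 members had an adjusted p-value under 0.05 where 2.08% of all genes did.

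Without amisulpride replicate 3, the log2 fold change of Arntl was -1.46 ± 0.45, with an unadjusted limma p of 0.00674 and an adjusted p of 0.175, which places it past the study thresholds. It ranged from -1.21 to -0.40 when any other library was left out, and was -0.40 without amisulpride replicate 2, the library with the lowest value.

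Clock (ENSMUSG00000029238, chromosome 5, 76209868 to 76304792, minus strand), which encodes the partner of ARNTL, had 35, 42 and 48 normalised counts in untreated libraries and 51, 48 and 39 in treated ones. Its groups overlapped, and the log2 fold change was 0.14 ± 0.31 with a 95% interval of -0.54 to 0.82. The processed pseudogene Ube2n-ps1 lies inside Clock on the same strand and had 36 to 91 normalised counts, so the split of reads between them depends on how overlapping genes were counted. The highest over the lowest value within the untreated and treated groups was 2.33 and 4.58 for Arntl and 1.37 and 1.31 for Clock. Without amisulpride replicate 3 the treated ratio of Arntl was 1.42 and that of Clock 1.06.

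Among the Per genes, which encode the PER proteins, Per3 (ENSMUSG00000028957, chromosome 4, 151003652 to 151044665, minus strand) had the largest fold change. It had 42, 52 and 27 normalised counts in untreated libraries and 76, 67 and 32 in treated ones. Amisulpride replicates 1 and 2 lay above all untreated libraries and replicate 3 lay among them. The log2 fold change was 0.48 ± 0.40 with a 95% interval of -0.40 to 1.36 and an adjusted p of 0.712. Within replicate numbers Per3 was higher in the treated library in 3 of 3, with log2 ratios of 0.84, 0.36 and 0.24. Without amisulpride replicate 3 the value was 0.86 ± 0.35 with an unadjusted limma p of 0.0307 and an adjusted p of 0.327, and without untreated replicate 3 it was 0.22. Per3 lies within Camta1 on the same strand, and Camta1 had a fitted value of 0.56 ± 0.33 on the log2 scale (adjusted limma p 0.587).

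Per1 (ENSMUSG00000020893, chromosome 11, 69095217 to 69109960, plus strand) and Per2 (ENSMUSG00000055866, chromosome 1, 91415982 to 91459324, minus strand), which respond early to serum and hormones in fibroblasts, stayed within a narrow band. Per1 had 38, 43 and 36 normalised counts in untreated libraries and 49, 35 and 38 in treated ones. Per2 had 30, 25 and 33 against 31, 36 and 29. Both sets of values overlapped between the groups. Their log2 fold changes were 0.05 ± 0.31, with a 95% interval of -0.64 to 0.74, and 0.12 ± 0.34, with an interval of -0.61 to 0.86. These intervals include changes in either direction, up to 1.67-fold higher for Per1 and 1.82-fold higher for Per2.

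The Cry genes, whose products carry most of the direct repression of the ARNTL-CLOCK pair, showed opposite signs. Cry1 (ENSMUSG00000020038, chromosome 10, 85131700 to 85185064, minus strand) had 42, 32 and 38 normalised counts in untreated libraries and 30, 29 and 25 in treated ones. It was the 1 member of 10 whose groups did not overlap, a property of 16.5% of all genes tested. The gap between the lowest untreated and the highest treated value was small, and the log2 fold change of -0.40 ± 0.33 had a 95% interval of -1.12 to 0.32 and an adjusted limma p of 0.709. It ranged from -0.50 to -0.30 over all alternatives.

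Cry2 (ENSMUSG00000068742, chromosome 2, 92403646 to 92434043, minus strand) had 80, 83 and 83 normalised counts in untreated libraries, the tightest group of all members with a highest over lowest value of 1.04. Its treated values were 140, 114 and 66, on both sides of the untreated ones. The log2 fold change was 0.31 ± 0.31 with a 95% interval of -0.38 to 1.0 and an adjusted p of 0.764 in limma. It was 0.62 ± 0.27 without amisulpride replicate 3, with an unadjusted limma p of 0.0391 and an adjusted p of 0.354, and 0.08 without amisulpride replicate 1.

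The REV-ERB genes encode nuclear receptors that repress Arntl. Nr1d2 (ENSMUSG00000021775, chromosome 14, 18204054 to 18239127, minus strand) had 223, 218 and 202 normalised counts in untreated libraries and 195, 260 and 258 in treated ones. The treated values lay on both sides of the untreated ones. Its 95% interval for the log2 fold change, -0.39 to 0.67 around 0.14 ± 0.24, was the narrowest of the members and corresponds to 0.762-fold to 1.59-fold.

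Nr1d1 (ENSMUSG00000020889, chromosome 11, 98767932 to 98775333, minus strand) had 105, 43 and 57 normalised counts in untreated libraries and 73, 39 and 64 in treated ones. Untreated replicate 1 was the highest library and the replicate 2 libraries were the lowest in both groups. The log2 fold change was -0.16 ± 0.39 with a 95% interval of -1.01 to 0.68, and its sign changed to 0.19 without untreated replicate 1 and to 0.10 without amisulpride replicate 2. The 3′ end of Nr1d1, where the reads of a 3′ kit lie, overlaps the 3′ end of Thra on the opposite strand by 1075 bases. Thra, a thyroid hormone receptor gene, had 376 to 743 normalised counts. Use of the strand in counting was not stated, so reads of the 2 genes may be mixed in the value of Nr1d1.

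Dbp (ENSMUSG00000059824, chromosome 7, 45705088 to 45710203, plus strand), the output gene, had the lowest p-value of the members. It had 36, 83 and 55 normalised counts in untreated libraries and 90, 127 and 61 in treated ones. Amisulpride replicates 1 and 2 lay above all untreated libraries, while replicate 3 lay below untreated replicate 2. The means were 58 ± 23.6 and 92.7 ± 33.1 (SD, n = 3). In limma the log2 fold change was 0.68 ± 0.38, its 95% interval ran from -0.14 to 1.51 and the adjusted p was 0.551.

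Dbp was higher in the treated library within each of the 3 replicate numbers, with log2 ratios of 1.30, 0.61 and 0.15. With the replicate block its unadjusted limma p was 0.0451 and its adjusted p 0.328, which made it the 1 member with an unadjusted p-value under 0.05, where the block gave 14.6% of all genes. Without amisulpride replicate 3 the log2 fold change was 0.95 ± 0.36 (unadjusted limma p 0.0224, adjusted p 0.294), without untreated replicate 2 it was 0.98, and without untreated replicate 1, the library with the lowest value, it was 0.39. The 3′ end of Dbp overlaps that of Sphk2 on the opposite strand by 737 bases. Sphk2 had a log2 fold change of the other sign, -0.63 ± 0.26 (adjusted limma p 0.393), and whether its reads entered the value of Dbp was not tested.

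**Figure D2:**
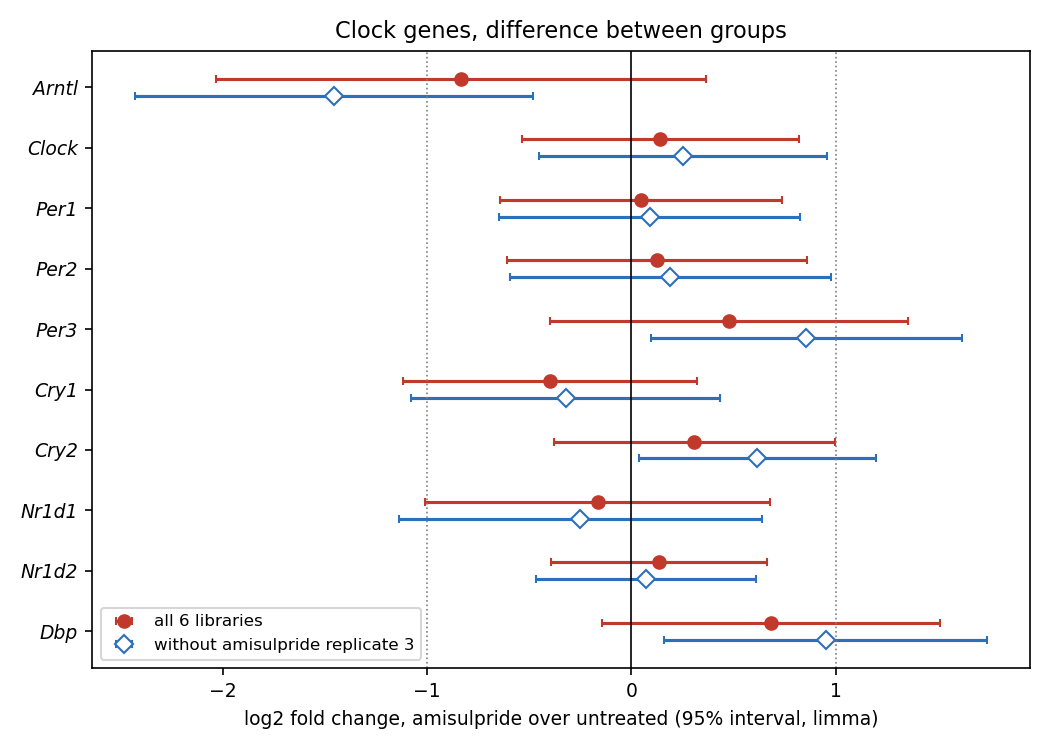
Log2 fold change of each clock gene, amisulpride over untreated (x axis), with its 95% interval from limma, for all 6 libraries (filled circles) and without amisulpride replicate 3 (open diamonds). Dotted lines mark a log2 fold change of 1 in either direction. With all libraries every interval includes 0, and without amisulpride replicate 3 those of Arntl, Per3, Cry2 and Dbp do not.

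The members differed in how far libraries of a group lay apart. Within-group variance was set against that of counting reads alone, where a value of 1 means no more scatter than counting. It was 0.422 for Cry1, 0.434 for Per2, 0.821 for Per1, 0.874 for Clock, 3.09 for Nr1d2, 5.19 for Cry2, 5.53 for Per3, 8.61 for Dbp, 10.01 for Nr1d1 and 10.1 for Arntl. The median over all 12614 genes was 5.35, and 4.79 over the 7399 genes with a mean of 25 to 250 normalised counts. Cry1, Per2, Per1, Clock and Nr1d2 lay below both medians, Cry2 between them, and Per3, Dbp, Nr1d1 and Arntl above both. Without amisulpride replicate 3, a choice made after the data were seen, the medians were 4.36 and 3.85. Cry2 then had 0.852 and Per3 3.03, both below these medians, while Arntl with 5.02, Dbp with 8.22 and Nr1d1 with 13.5 remained above them.

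Values of 4 of the 5 most scattered members were set side by side by library. This is a description of members picked after the values had been seen. Over the 6 libraries the Pearson correlation of Arntl on the log2 scale was -0.80 with Per3, -0.79 with Cry2 and -0.46 with Dbp. That of Nr1d1 with Dbp was -0.79, although the ARNTL pair switches on both genes. None of these correlations was tested. The libraries with the lowest Arntl values, amisulpride replicates 1 and 2, were those with the highest values of Dbp, Per3 and Cry2. In amisulpride replicate 2 Arntl lay 1.28 below its mean over the 6 libraries on the log2 scale, Dbp 0.85 above and Per3 0.53 above. In amisulpride replicate 3 Arntl lay 0.83 above its mean, close to the 0.86 of untreated replicate 3, and Per3 lay -0.52 from its mean against -0.75 in untreated replicate 3. Nr1d1 did not follow Arntl (correlation -0.02), with 0.28 in amisulpride replicate 1 and -0.61 in amisulpride replicate 2. Arntl and Dbp did not lie on opposite sides in untreated replicate 1. There Arntl (-0.33) and Dbp (-0.94) were both below their means and Nr1d1 was 0.79 above.

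**Figure D3:**
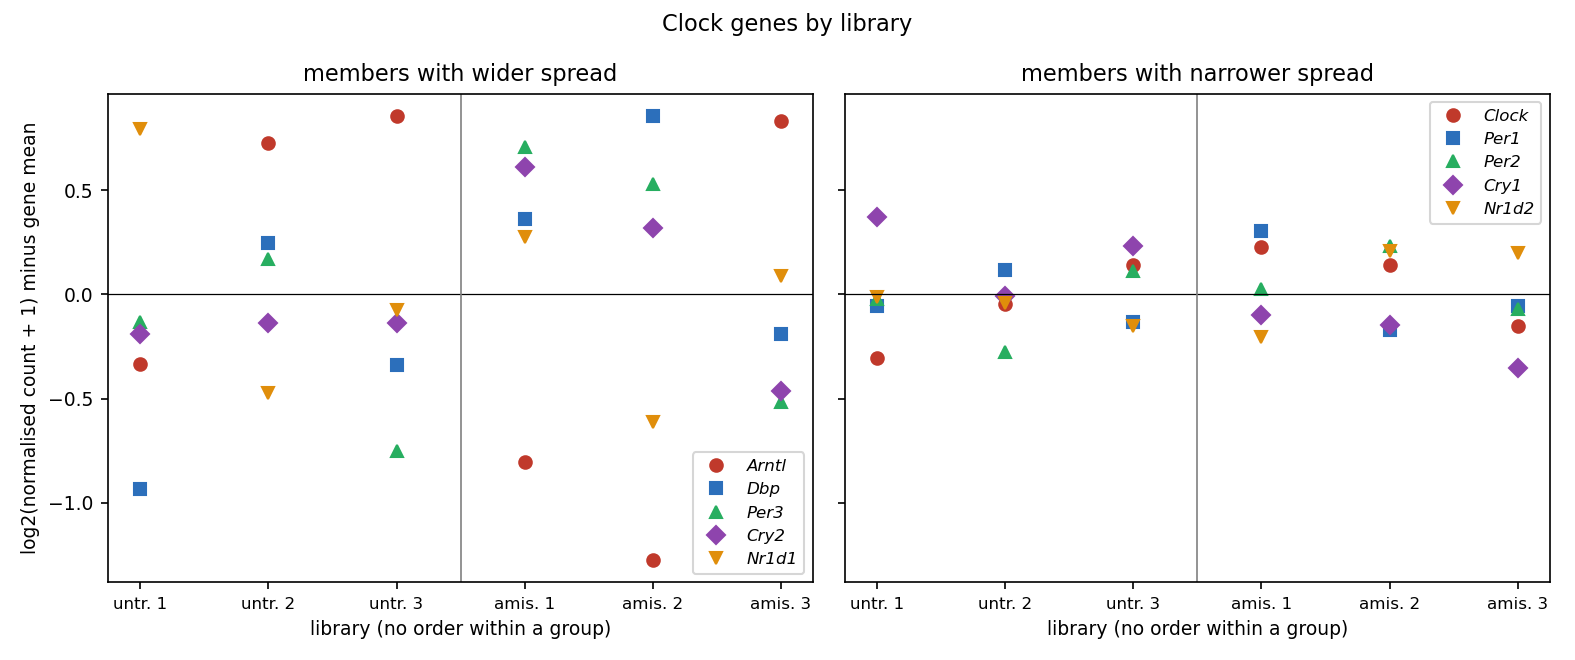
Log2(normalised count + 1) of each clock gene minus its mean over the 6 libraries (y axis) in each library (x axis, untreated to the left of the line, amisulpride to the right). The left panel holds the 5 members with the highest within-group variance relative to counting, in which Arntl is low and Dbp, Per3 and Cry2 are high in amisulpride replicates 1 and 2, and the right panel the 5 with the lowest.

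In Arntl, Per3, Cry2 and Dbp, amisulpride replicate 3 sat apart from the other treated libraries. Its Arntl, Per3 and Dbp values lay within the untreated range and its Cry2 value below that range. Without that library, 4 of the 10 members had an unadjusted limma p-value under 0.05, where 12.7% of all genes did. Arntl was lower (6.43% of all genes were lower) and Per3, Cry2 and Dbp were higher (6.32% were higher). The 1 member past the study thresholds, Arntl, compares with 6.44% of all genes. None of the 10 had an adjusted p-value under 0.05, where 0.951% of all genes did, and with the replicate block added Per3 and Cry2 had unadjusted limma p-values of 0.112 and 0.055. In the remaining 5 libraries the groups did not overlap for 5 members, the same 4 and Cry1, against 28.1% of all genes, a count made after the values had been seen. Amisulpride replicate 3 was the shallowest library and the farthest on the first principal component. Amisulpride replicate 2 was the next shallowest, at approximately 2.94 M reads, and the farthest on the second component, at -56.5. It had the lowest Arntl value (12) and the highest Dbp value (127). The part of depth and of these components in the clock values was not tested.

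With all 6 libraries, 4 of the 10 members, Arntl and Cry1 (lower) and Per3 and Dbp (higher), had the same direction within all 3 replicate numbers, against 34.7% of all genes tested. This share is near that of all genes. Arntl and Dbp had an unadjusted limma p-value under 0.05 with library weights, where 13.8% of all genes did, and without amisulpride replicate 3 with the block, where 14.8% did. Without untreated replicate 2 it was Dbp, against 8.95% of all genes. Arntl passed the study thresholds with library weights and without amisulpride replicate 3 with the block, where 6.2% and 7.22% of all genes did.

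Of the 44 other clock pathway genes listed, 38 were tested and 4 had an unadjusted p-value under 0.05, a share close to the 10.9% of all genes. None had an adjusted p-value under 0.05. Their median log2 fold change was 0.11, and 23 were higher and 15 lower. Npas2, which encodes the partner that can stand in for CLOCK, had 18, 27 and 22 normalised counts in untreated libraries and 6, 11 and 4 in treated ones. All treated values lay below all untreated ones. The groups did not overlap for 8 of the 38 tested pathway genes, against 16.5% of all genes tested. The Npas2 value of amisulpride replicate 3 was under that library's floor of 5.37 normalised counts, the equivalent of 3 reads. The log2 fold change of Npas2 was -1.62 ± 0.52 with an unadjusted limma p of 0.00921 and an adjusted p of 0.251. Npas2 was the 1 of these 38 genes past the study thresholds, where 5.7% of all genes were. Its unadjusted p-value stayed under 0.05 in all alternatives, with log2 fold changes of -1.96 to -1.22. Npas2 passed the filter on low values through its untreated libraries, as amisulpride replicates 1 and 3 lay below the filter's minimum. With no filter, its unadjusted limma p was 0.01205 and its adjusted p 0.348.

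Of the 11 tested genes among the other repressors and outputs, 2 had an unadjusted limma p-value under 0.05, both higher, where 5.11% of all genes were higher by that rule, and 0 had an adjusted p-value under 0.05. Bhlhe41 (DEC2), a repressor that competes for E-boxes, had 61, 58 and 39 normalised counts in untreated libraries and 83, 92 and 91 in treated ones. The groups did not overlap, as for 16.5% of all genes tested. Amisulpride replicate 3 lay with the other treated libraries, unlike in Dbp and Per3. The log2 fold change was 0.77 ± 0.29 (unadjusted limma p 0.0227, adjusted p 0.350), and dropping untreated replicate 3 or amisulpride replicate 2 gave unadjusted limma p-values of 0.104 and 0.0558. Tsc22d3 (GILZ), a glucocorticoid-induced gene that also cycles, had 86, 69 and 80 against 99, 133 and 125, a log2 fold change of 0.59 ± 0.27 (unadjusted limma p 0.0468, adjusted p 0.453). Its unadjusted limma p was 0.0557 with the replicate block, and 0.0540, 0.0559 and 0.0541 with quantile normalisation, upper quartile scaling and no variance trend. It was 0.141 and 0.088 if untreated replicate 2 or 3 was left out, and 0.131 and 0.0743 for amisulpride replicate 2 or 3. The median log2 fold change of the list was 0.24.

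The other relatives of the members that were tested, Tef, Rora and Arntl2, had unadjusted p-values above 0.05. Tef, a PAR bZIP factor like DBP, had 897, 743 and 784 normalised counts in untreated libraries and 887, 946 and 510 in treated ones, with a log2 fold change of -0.10 ± 0.28 (adjusted limma p 0.925). Its lowest value was in amisulpride replicate 3, and without that library it was 0.19. Hlf, the other PAR bZIP gene, did not pass the filter, at 4 to 13. Rora, an activating receptor at RREs, had 225 to 358 normalised counts in untreated and 344 to 460 in treated libraries, with a log2 fold change of 0.32 ± 0.27 (adjusted limma p 0.712). Rorb, a relative of Rora, was at 0 to 1 in all 6 libraries, under the floor of every library. Arntl2, a paralog of Arntl, had 5 to 14 and 4 to 13 normalised counts, too low for a comparison of any precision (0.11 ± 0.65).

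Of the kinases and ubiquitin ligases that set the stability of PER and CRY proteins, 1 of 13 tested genes had an unadjusted p-value under 0.05, and it was lower, where 5.77% of all genes were. Csnk1e, a casein kinase that phosphorylates PER proteins, had 144, 165 and 179 normalised counts in untreated libraries and 127, 96 and 81 in treated ones. Its groups did not overlap, as for 16.5% of all genes tested. The log2 fold change was -0.70 ± 0.27 (unadjusted limma p 0.0247, adjusted p 0.357). The unadjusted limma p was 0.0581 to 0.0852 when untreated replicate 2 or 3 or amisulpride replicate 2 or 3 was left out. Of 11 tested cofactors, 0 had an unadjusted limma p-value under 0.05, with log2 fold changes from -0.55 to 0.54.

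**Figure D4:**
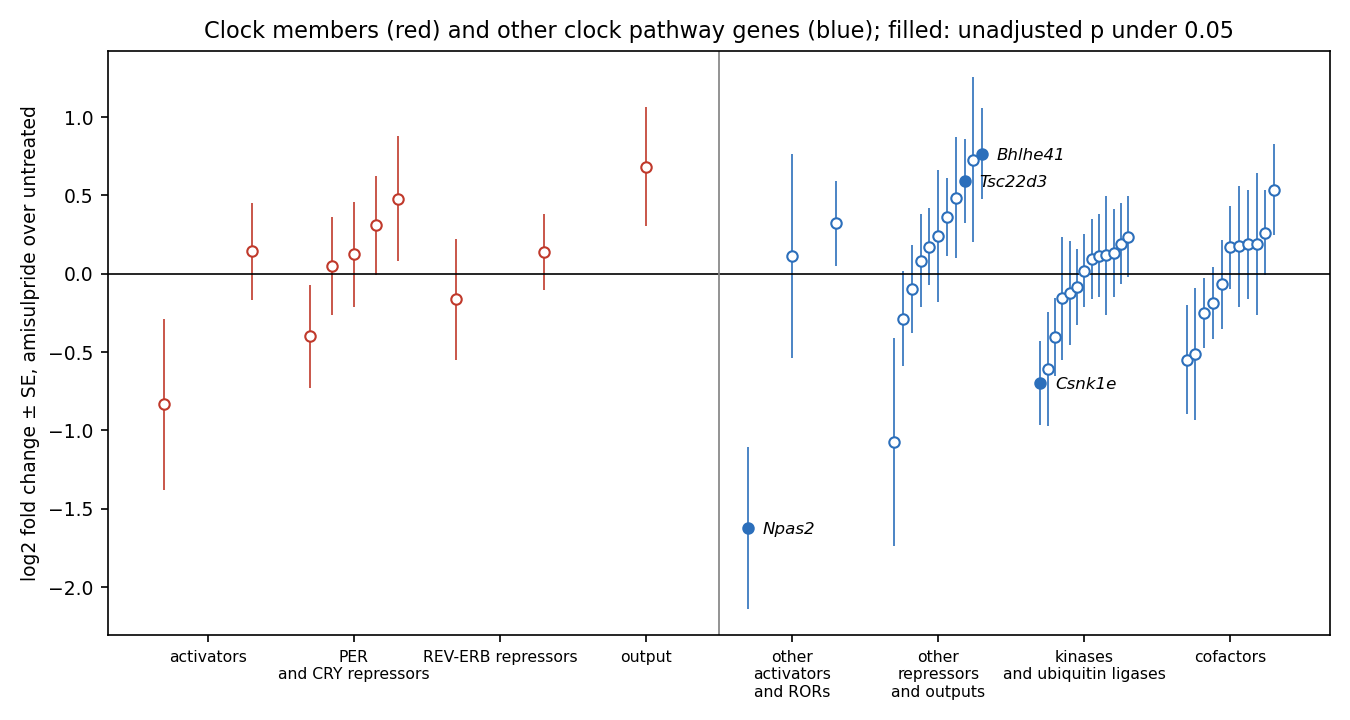
Log2 fold change ± SE (y axis), amisulpride over untreated, of the 10 members by role (red) and of the 38 tested genes of the other clock pathway lists (blue). Filled symbols have an unadjusted limma p-value under 0.05, namely Npas2, Bhlhe41, Tsc22d3 and Csnk1e, and no member does.

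The genes whose values over the 6 libraries were most like those of Dbp and of Arntl were looked up among protein-coding genes as a description. Klhl13, Fam71e1 and Papd4 had the highest Pearson correlations with Dbp on the log2 scale (0.993, 0.992 and 0.987), and Cmpk1, Rad54l2 and Zfyve16 with Arntl (0.989, 0.989 and 0.984). These correlations rest on 6 points from the same libraries and were the highest of 11025 genes, so they carry no test. None of the 6 had an adjusted p-value under 0.05 in limma. Klhl13 came closest, with 54, 136 and 89 normalised counts in untreated libraries against 161, 224 and 113 in treated ones (adjusted p 0.421).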

How the data were processed

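Total RNA of 6 SF cultures was sequenced with a 3′ end kit (QuantSeq) on an Ion Proton instrument. The authors mapped reads to mm10 with TopHat2 and Bowtie2, counted them per gene with GenomicRanges, normalised the counts and tested them with DESeq, all through metaseqr. The method of normalisation and the versions are not given in the sources used here. The deposited values used are a score: the authors scaled the reads of each library by a factor of its own, and the results, here called normalised counts, were stored as whole numbers. The authors' fold changes and p-values, and 12 further columns per library on other scales, were not used.

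The value of 1 read in each library was estimated by maximum likelihood from the steps among low values and was tested on simulated data. It was 0.834 to 1.79 normalised counts, but poorly resolved in untreated replicate 1, where the gain in log-likelihood was 44 against 312.5 to 3620 in the others. Reads and floors (3 reads) are approximate and cover counting error only. Where several genes carried a symbol, the one with the highest mean was used.

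The comparison used log2 values of the normalised count with a pseudocount of 1, a scale that understates changes of low genes, and limma (version 3.58.1, R 4.3.3) with a variance trend, two-sided tests and Benjamini-Hochberg adjustment over 12614 genes. The script was tested on simulated data. An exact permutation test of 3 against 3 libraries cannot go below 0.1 and was not used. The study's methods call the 3 libraries of a group biological replicates of cultured SFs, without saying whether each came from separate mice, so p-values measure the spread between these cultures. Libraries with the same replicate number deviated together from their group means, with correlations over 12614 genes of 0.229, 0.240 and 0.201. Between different numbers the correlations were -0.149 to -0.078. Centring each group on its mean ties these values together, so the negative ones are no separate evidence. The numbers were taken to pair the samples, from the data and not from the labels, and the block is an alternative. Named genes were all members, pathway genes with an unadjusted p-value under 0.05, paralogs of members, RORs, overlapping genes, and the 3 genes most correlated with the member of lowest p-value in each direction. Members and lists were chosen with earlier results of these data known. Of the listed genes, 1 is not reported here by name.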

Additional observations from a re-analysis of the deposited data

How the results depend on the processing

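Of 150 log2 fold changes of members over 15 alternatives, 146 kept their direction and 0 reached an adjusted p-value under 0.05, the lowest being 0.116 for Dbp without amisulpride replicate 3 and with the replicate block, an alternative chosen after the data were seen. With 1 library left out, Per1 ranged from -0.0904 to 0.1465 (below 0 without amisulpride replicate 1, and -0.006 if untreated replicate 3 was dropped), Nr1d1 from -0.4417 to 0.1925 (above 0 without untreated replicate 1, and 0.1008 if amisulpride replicate 2 was dropped), Arntl2 from -0.1769 to 0.5899 (also below 0 at -0.1528 and -0.0993, if amisulpride replicate 1 or 2 was dropped) and Tef from -0.2596 to 0.1854 (above 0 without amisulpride replicate 3). Tef was also above 0 with library weights (0.11) and in the added alternative (0.166). Of 31 pathway genes not named, 17 kept their sign throughout, and Csnk2b, a casein kinase subunit gene, reached an adjusted limma p of 0.0316 in the added alternative.

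No member passed the study thresholds in the main comparison, where 5.7% of all genes did. Arntl alone did with library weights (-1.39), without amisulpride replicate 3 and with the block added to that, where 6.2%, 6.44% and 7.22% did. The count of members with an unadjusted p-value under 0.05 was 2 with library weights (13.8% of all genes) and 1 with the replicate block (14.6%). With 1 library left out it was 0 to 4, with 1 without untreated replicate 2 (8.95%) and 4 without amisulpride replicate 3 (12.7%). Without amisulpride replicate 3 with the block it was 2 (14.8%). For the 38 other pathway genes tested, the count was 4 in the main comparison, against 10.9% of all genes. With 1 library left out it was 1 to 5, against 957 to 1668 of all 12614 genes. It was 1 without untreated replicate 3 (957 of all genes) and 1 without amisulpride replicate 2 (1189 of all genes). In the added alternative it was 2, against 14.8% of all genes.

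Over all genes, 36 had an adjusted p-value under 0.05. A pseudocount of 5 gave 57, no filter 57, quantile normalisation 66, library weights 195, the replicate block 263 and the added alternative 445. It was 0 to 120 with 1 library left out. Each library mattered: dropping untreated replicates 1, 2 and 3 left 1, 0 and 0 genes, and amisulpride replicates 1, 2 and 3 left 18, 6 and 120. The unadjusted limma p-value was under 0.05 for 1129 and 957 genes where the count was 0. At the study thresholds it was 719, and 1313 without a filter. The causes were not tested. Beyond the values given, the replicate block changed no call on a member. Library number and depth limit what can be said: even the narrowest interval of a member, that of Nr1d2, reached 1.59-fold higher.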
